A study of Homo sapiens with 18 samples.

Results

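The comparison described here is the interaction of doxycycline (DOX) with the small molecule RepSox in HT-29 iZEB1 cells: the RepSox response of cells given DOX minus the RepSox response of cells not given it. It uses the 12 HT-29 iZEB1 libraries of the 18 in the series. All 16978 genes that passed a filter on low counts were tested, of 60642 gene symbols in the deposited table. HT-29 is a human colorectal cancer line with epithelial features, and iZEB1 is an expression system in it that makes ZEB1 when DOX is added. Each group has 3 libraries: DOX with RepSox, DOX with the vehicle DMSO, RepSox without DOX, and DMSO without DOX. Cells received RepSox for 24 h at 10 µM. The dose of DOX was 1 µg/ml, and its duration is stated as 24 h in the treatment protocol but as 48 h in the design text. Cells of all 4 groups carry the inducible gene, so an action of DOX itself and an action of the induced ZEB1 cannot be told apart here. Whether the line is 1 clone and whether the replicates came from different cultures is not stated. The p-values therefore reflect only how far these libraries vary, and that variation may be technical.

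ZEB1 is a DNA-binding repressor that silences genes of cell adhesion and polarity during the epithelial-mesenchymal transition (EMT), and it recognises the E-box sequence CACCTG. TGF-β acts through ALK5, a receptor kinase that activates SMAD proteins, and it is a classical inducer of EMT in epithelial cells and of ZEB1 itself. RepSox inhibits ALK5. The interaction therefore asks whether the cells answer RepSox in another way when DOX is given. ZEB1 RNA was itself far lower with DOX and RepSox than with DOX and DMSO, as given below. The contrast is thus not one of cells that had a high ZEB1 level under RepSox.

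The libraries held 36.5 to 39.8 M counts each, and 99.93% to 99.95% of them fell in tested genes. Pairs of replicates differed by more than counting error, with a chi-square per degree of freedom of 5.97 to 42.6. The highest value was between replicates 2 and 3 of DOX with DMSO. As a check of the label, 11 intestinal epithelial markers summed to 10200 to 11100 CPM (counts scaled to library size) with DOX and RepSox, 4700 to 5190 CPM with DOX and DMSO, 9670 to 10000 CPM with RepSox alone and 9010 to 10200 CPM with DMSO alone. Most of each sum came from the simple-epithelium keratins KRT8 and KRT18. CDX1 and CDX2 averaged at most 0.394 and 0.581 CPM in any group. CDH17 averaged 8.29 CPM with DOX and DMSO and at most 1.29 CPM in the other groups. LGALS4 and VIL1 averaged at least 355 and 21.8 CPM in every group. No library passed 2.02 CPM for the sum of 14 fibroblast markers. The sum of 14 leukocyte markers was 1160 to 1370 CPM with DOX and RepSox, 1730 to 1760 CPM with DOX and DMSO, 1100 to 1230 CPM with RepSox alone and 1290 to 1360 CPM with DMSO alone, nearly all of it from LYZ, the lysozyme gene, while the defining marker PTPRC averaged at most 0.164 CPM and CD2 and MS4A1 had 0 counts. The sum of 12 endothelial markers was 54.8 to 68.8 CPM with DOX and RepSox, 67.1 to 82.3 CPM with DOX and DMSO, 65.3 to 71.8 CPM with RepSox alone and 73.8 to 82.3 CPM with DMSO alone, mostly from ESAM, ENG and TEK, while VWF, CDH5 and KDR averaged at most 0.0367 CPM. In these cultures of 1 line, fewer cells with a transcript and less RNA per cell cannot be told apart.

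ZEB1 (chromosome 10, 31318495 to 31529814, plus strand, protein-coding, GENCODE 29 on GRCh38, as for all gene positions here) was read first, as the check of the induction. It had 14.3, 15.6 and 17.1 CPM with DOX and RepSox, 366, 380 and 370 CPM with DOX and DMSO, 4.93, 5.25 and 5.58 CPM with RepSox alone and 7.76, 7.23 and 10.2 CPM with DMSO alone. No 2 of the groups overlapped. RepSox lowered ZEB1 23.8-fold with DOX and 1.59-fold without it, a log2 interaction of -3.90 (SE 0.15, adjusted p = 2.85e-12, edgeR's quasi-likelihood test with Benjamini-Hochberg adjustment over all genes tested, as for all adjusted p-values here). The counts do not separate RNA of the inducible gene from RNA of the cells' own gene. The ZEB1 level differed among the same groups as every other result here, and its part in them was not tested.

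The RepSox response differed with DOX in 3834 of 16978 genes (22.6%). In 2202 genes (13%) the interaction was positive, meaning a RepSox response shifted upward in cells with DOX, and in 1632 genes (9.61%) it was negative. With scaling to library totals alone the calls split into 1826 positive and 2061 negative. At a size of at least 2-fold, 894 genes were called (5.27%), of which 490 genes (2.89% of those tested) were positive and 404 (2.38%) negative. The median log2 interaction of all genes tested was 0.0133 and the median of its absolute value was 0.275, against 0.582 for the called genes. For 7301 genes (43%) the 95% interval of the interaction lay within 1.5-fold in both directions.

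The RepSox responses with and without DOX were measured in separate libraries. With DOX, RepSox changed 8864 genes (52.2%), 4543 of them upward (26.8%) and 4321 downward (25.5%). Without DOX it changed 4290 genes (25.3%), 2114 upward (12.5%) and 2176 downward (12.8%). RepSox raised 1676 genes and lowered 1593 in both settings. Another 2689 were called higher and 2652 lower with DOX and were not called without it, and 362 were called higher and 405 lower without DOX and were not called with it. RepSox raised 178 genes with DOX that it lowered without DOX, and it lowered 76 with DOX that it raised without. Of the called interactions, 86.1% had the group with DOX and DMSO as the one farthest from the median of the 4 group means, against 56.6% of all genes tested. DMSO alone was the farthest group for 9.75% of the called genes, DOX with RepSox for 3% and RepSox alone for 1.17%. These shares were below those of all genes tested, 15.7%, 14.6% and 13.1%.

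**Figure D1:**
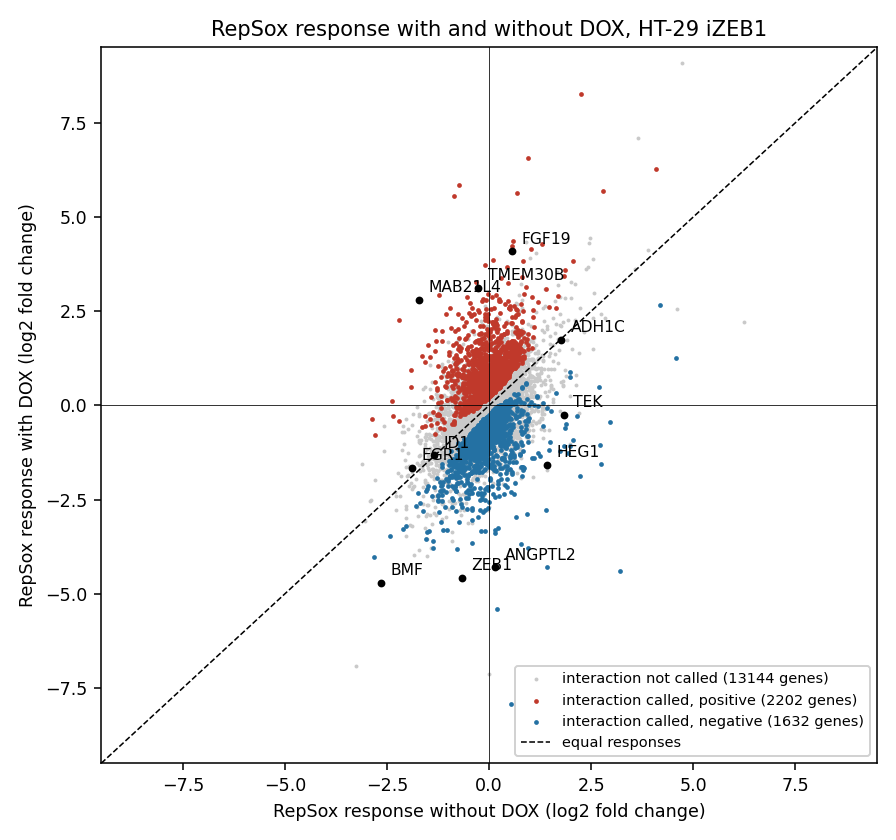
The log2 fold change of RepSox against DMSO is plotted for cells with DOX (vertical axis) and without DOX (horizontal axis), 1 point per tested gene, with the 2202 positive and 1632 negative interactions in colour and equal responses on the dashed line. FGF19 and TMEM30B lie far above the line, ZEB1, ANGPTL2 and HEG1 far below it, and EGR1, ID1 and ADH1C close to it.

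Each of the 12 genes with the largest positive interactions had its lowest mean CPM with DOX and DMSO, and 10 of them had their highest with DMSO alone. TMEM30B (chromosome 14, 61277370 to 61281840, minus strand, protein-coding), a subunit of flippases that move lipids across the membrane, had 31.4, 30.3 and 31.7 CPM with DOX and RepSox, 3.5, 3.54 and 3.78 CPM with DOX and DMSO, 53.3, 53.6 and 53.4 CPM with RepSox alone and 66.2, 63.4 and 63.3 CPM with DMSO alone. None of the 4 groups overlapped another. RepSox raised it 8.63-fold with DOX and lowered it 1.2-fold without DOX (interaction 3.38, SE 0.1, adjusted p = 7.16e-14).

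S100A14 (chromosome 1, 153614255 to 153616986, minus strand, protein-coding), a calcium-binding protein of epithelia, had 14.2, 12.4 and 11.4 CPM with DOX and RepSox, 2.17, 1.74 and 1.85 CPM with DOX and DMSO, 29.8, 32 and 32.5 CPM with RepSox alone and 44.1, 42.1 and 43.1 CPM with DMSO alone. Its groups did not overlap either, and DOX with RepSox stayed below both groups without DOX. The interaction was 3.17 (SE 0.14, adjusted p = 1.27e-11), with a RepSox response of 6.56-fold upward with DOX and 1.37-fold downward without it. FGF19 (chromosome 11, 69698232 to 69704642, minus strand, protein-coding), a hormone that the ileum releases in response to bile acids, had 135, 115 and 116 CPM with DOX and RepSox, 6, 7.73 and 7.83 CPM with DOX and DMSO, 174, 164 and 167 CPM with RepSox alone and 117, 115 and 111 CPM with DMSO alone. Only DOX with RepSox and DMSO alone overlapped. RepSox raised FGF19 in both settings, 16.9-fold with DOX and 1.47-fold without (interaction 3.53, SE 0.12, adjusted p = 7.22e-13).

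Other genes among the 12 largest positive interactions were BICDL2, a dynein adaptor (3.60), the membrane serine protease TMPRSS4 (3.56), C1orf210 (3.19), the integrin subunit ITGB6, which forms a receptor that activates latent TGF-β (3.0), and LARGE2, a glycosyltransferase that acts on dystroglycan (3.0). The value of LARGE2 (SE 0.35) rested on 32 counts summed over the 3 libraries with DOX and DMSO. It ran from 2.62 to 3.57 with 1 library left out. ITGB6 had 23.9, 25.8 and 25.9 CPM with DOX and RepSox, 3.8, 2.73 and 3.13 CPM with DOX and DMSO, 32.8, 30.9 and 29 CPM with RepSox alone and 32.8, 29.6 and 32.5 CPM with DMSO alone. RepSox raised it 7.83-fold with DOX, and its response without DOX did not pass the test (adjusted p = 0.817). The interaction of ITGB6 had an SE of 0.14 and an adjusted p of 2.08e-11.

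Among genes with a mean of at least 100 CPM over the 12 libraries, the largest further positive interactions included those of ANO1, a calcium-activated chloride channel (2.13), TRIM29, a protein of stratified epithelia (2.09), and RAB25, a GTPase of apical recycling (2.0). RAB25 had 119, 107 and 103 CPM with DOX and RepSox, 27.4, 31.4 and 29.6 CPM with DOX and DMSO, 133, 125 and 131 CPM with RepSox alone and 141, 136 and 142 CPM with DMSO alone. No groups of RAB25 overlapped, and its RepSox response was 3.72-fold upward with DOX and not called without DOX (adjusted p = 0.26). The interaction had an SE of 0.1 and an adjusted p of 4.01e-11.

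**Figure D2:**
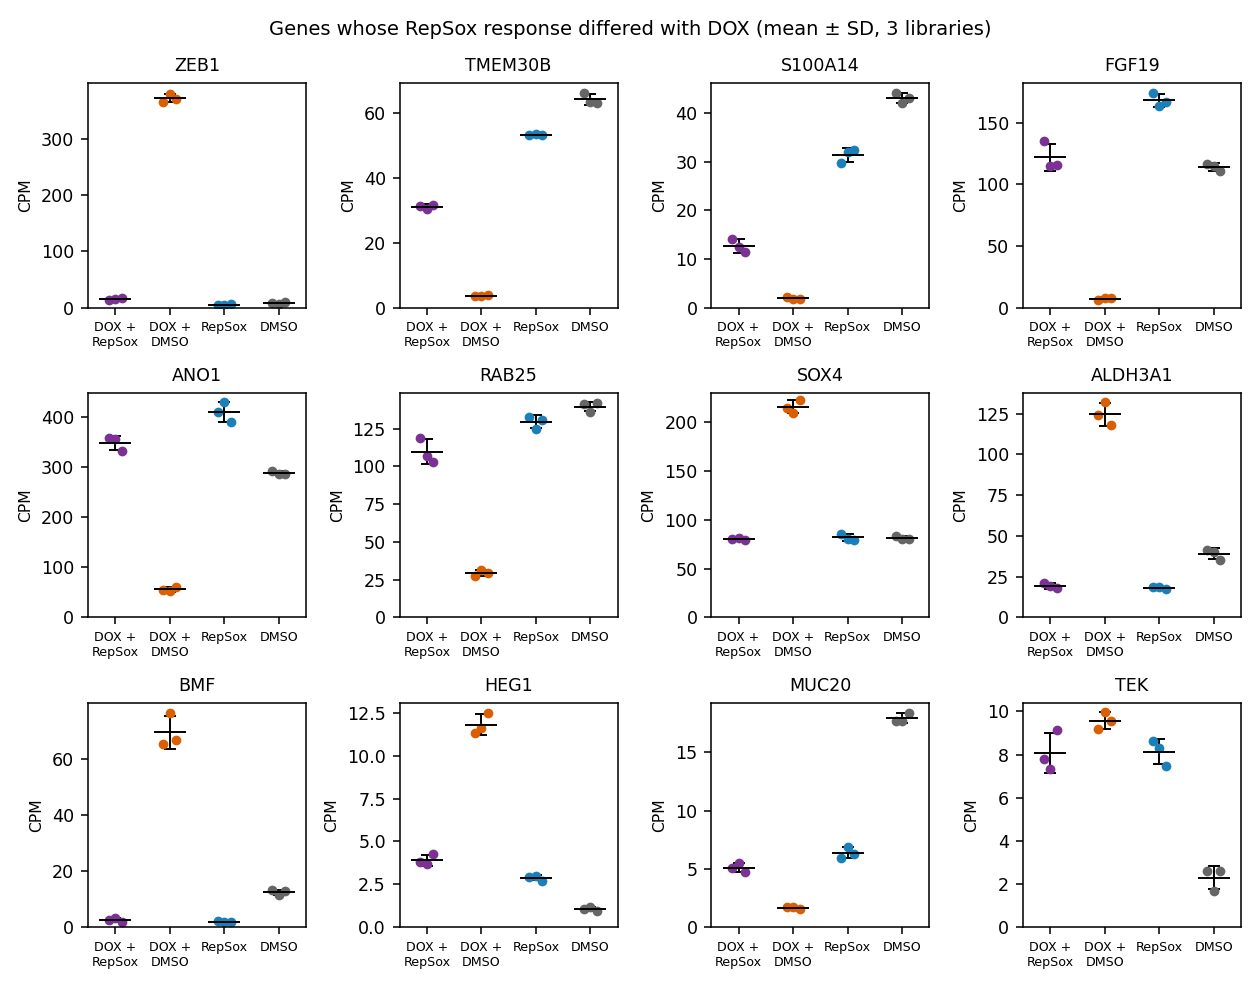
CPM of 12 named genes in each of the 12 libraries, by group, with a horizontal line at the mean and bars of 1 SD (n = 3). In the panels of TMEM30B, S100A14, FGF19, ANO1 and RAB25 the DOX with DMSO libraries are the lowest, in those of ZEB1, SOX4, ALDH3A1, BMF and HEG1 they are the highest, and in that of TEK the DMSO libraries stand below the other 3 groups.

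The promoters of these genes were read for the E-box that ZEB1 recognises. The RefSeq table of promoters (build GRCh38.p14) held 9 of the 21 genes looked up, which were those with the largest positive interactions and the leading epithelial list members. In the 250 bases before a listed start, 6 of the 9 held CACCTG or its reverse complement CAGGTG. The windows of PLA2G4F, BSPRY and ANO1 held neither. The ANO1 window ends at 69985906, far upstream of the gene start annotated at 70078302, so the bases before that start were not read. Of all 35116 promoters in the table, 17.5% held at least 1 such motif, 2.53% at least 2 and 0.464% at least 3. These shares are per promoter, while the 9 genes were picked by the size of their interaction and MAB21L4 has 2 starts. The count of 6 of 9 therefore cannot be compared with them, and binding of ZEB1 was not tested. TMEM30B held 3, at 118, 98 and 35 bases before the start, and C1orf210 held 2, at 67 and 37 bases. S100A14 (14 bases), ITGB6 (70 bases), RAB25 (41 bases) and 1 of the 2 starts of MAB21L4 (10 bases) held 1 each. The table covered 64.3% of the genes tested and 58.3% of the epithelial list, too few for a share of promoters with the motif over a gene set, so none is given. The 9 stretches of 30 bases follow, 5′ to 3′ on the gene's strand, to show where the E-box (capitals) sits in the genes that carry the largest interactions. Of these, 6 touch an annotated exon of the gene and 3 do not (the farther one of C1orf210, and those of ITGB6 and RAB25).
TMEM30B, chr14:61281439-61281468, minus strand: gactgagtctacCAGGTGaggtaaaaaaca
TMEM30B, chr14:61281419-61281448, minus strand: gtaaaaaacaccCACCTGctcacctcggaa
TMEM30B, chr14:61281356-61281385, minus strand: gggggtgcagcgCACCTGggcggaggcgga
C1orf210, chr1:43285631-43285660, minus strand: ccactgcctccgCAGGTGagtcaagctctg
C1orf210, chr1:43285601-43285630, minus strand: ccttgacccgccCACCTGtccaggttctgc
S100A14, chr1:153616322-153616351, minus strand: aagagctgagctCAGGTGagctggctcctc
ITGB6, chr2:160200325-160200354, minus strand: ttggtgattgtaCACCTGccttccttataa
RAB25, chr1:156061107-156061136, plus strand: catctctccaccCACCTGggccccaggtct
MAB21L4, chr2:240896149-240896178, minus strand: gttcagctatttCACCTGccacactgtgct

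Nearly all genes of the epithelial adhesion and polarity list had a positive interaction. Of 48 tested members, 45 were positive, 1 was negative and 2 did not pass the test, against 13% positive and 9.61% negative of all genes. The median log2 interaction was 1.11, against 0.0133 for all genes. Because the list was chosen with earlier results of these data known, its counts are not an independent test. The RepSox response was upward in 38 and downward in 4 of the members with DOX, and upward in 1 and downward in 26 without DOX. For all genes tested it was upward in 26.8% and downward in 25.5% with DOX, and in 12.5% and 12.8% without DOX. CDH1, which encodes E-cadherin of adherens junctions, had 353, 334 and 341 CPM with DOX and RepSox, 225, 226 and 235 CPM with DOX and DMSO, 375, 385 and 367 CPM with RepSox alone and 457, 447 and 478 CPM with DMSO alone. No groups overlapped. RepSox raised CDH1 1.5-fold with DOX and lowered it 1.23-fold without DOX (interaction 0.88, SE 0.08, adjusted p = 1.14e-07).

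Members with the largest values after TMEM30B and S100A14 were BSPRY (2.83), the tight junction protein MARVELD3 (2.50), TMC4 (2.36), the basolateral sorting adaptor AP1M2 (2.27), the membrane protease PRSS8 (2.10) and the apical polarity protein CRB3 (2.02). EPCAM, a homophilic adhesion molecule of epithelia, had an interaction of 1.59, and the simple-epithelium keratins KRT8 and KRT18 had 1.07 and 1.26. The claudins were not alike: CLDN7 (1.10), CLDN3 (0.72) and CLDN4 (0.43) were positive and CLDN1 was negative. CLDN1 averaged 54.5 CPM with DOX and RepSox, 65.1 CPM with DOX and DMSO, 52.7 CPM with RepSox alone and 48.1 CPM with DMSO alone (interaction -0.39, SE 0.09, adjusted p = 0.00353). The desmosome genes JUP and DSC2 were the 2 members not called.

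**Figure D3:**
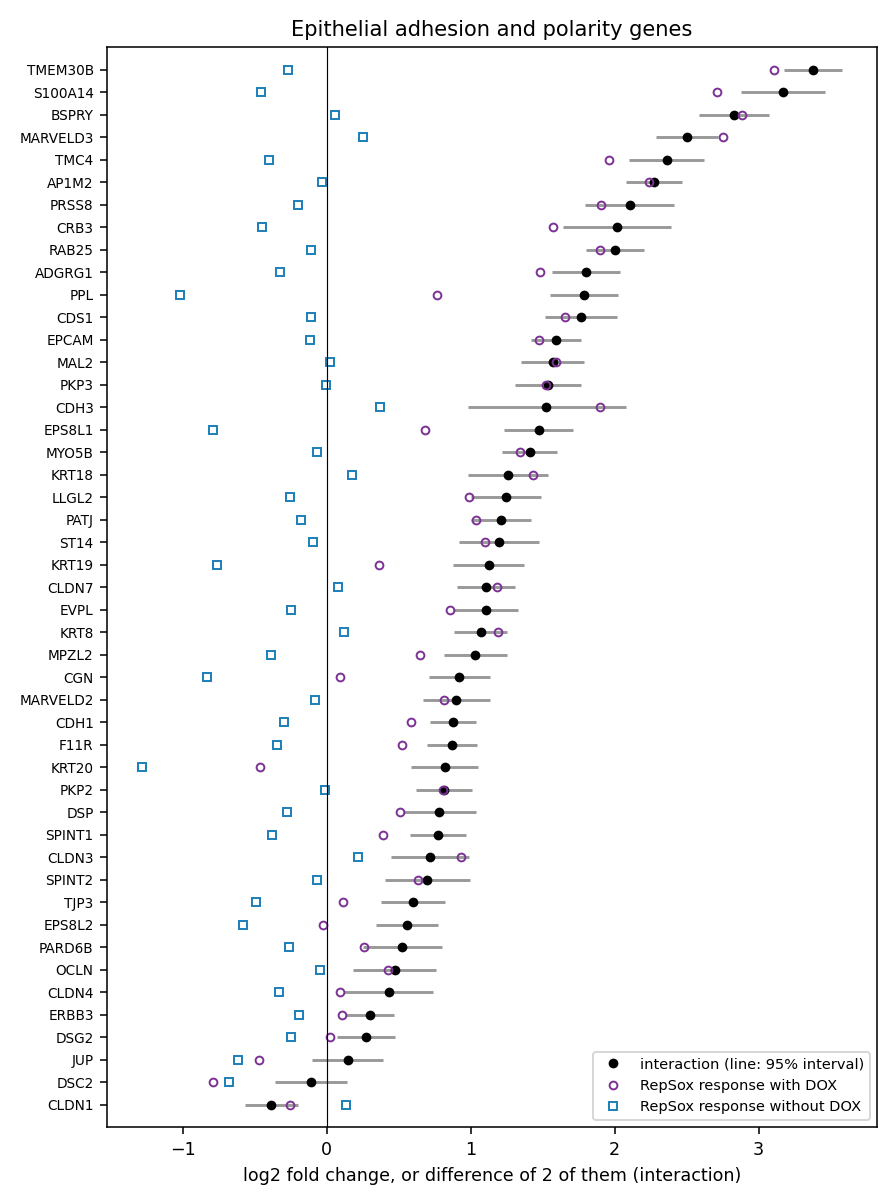
For 47 of the 48 tested genes of the epithelial adhesion and polarity list, the log2 interaction with its 95% interval and the log2 RepSox responses with and without DOX are drawn on 1 axis. The called interaction is positive in 44 of the genes drawn, from 3.38 for TMEM30B to 0.27 for DSG2, and negative in CLDN1.

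Of 23 tested genes of epithelial transcription and splicing, 11 had a positive and 3 a negative interaction, with a median of 0.42. The shares of all genes tested were 13% and 9.61%, and the 3 negative members are near the latter. OVOL1, a zinc-finger repressor of EMT, had 10.4, 8.28 and 8.09 CPM with DOX and RepSox, 1.3, 1.69 and 2.34 CPM with DOX and DMSO, 12.3, 11.8 and 9.52 CPM with RepSox alone and 11.6, 12.2 and 11.4 CPM with DMSO alone. DOX with DMSO was the low group and did not overlap the rest (interaction 2.39, SE 0.22, adjusted p = 2.28e-07). ESRP1, an epithelial splicing regulator, and GRHL2, a grainyhead activator of junction genes, had interactions of 1.96 and 1.62. RepSox raised ESRP1 3.4-fold and GRHL2 2.57-fold with DOX, and lowered them 1.14-fold and 1.19-fold without DOX. The 3 negative members were FOXA2 (-1.47), FOXA1 (-0.46) and HNF4A (-0.42), factors of endoderm and gut.

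Each of the 12 genes with the largest negative interactions had its highest mean CPM with DOX and DMSO. ANGPTL2 (chromosome 9, 127087332 to 127122883, minus strand, protein-coding), a secreted angiopoietin-like protein, had 0.882, 0.871 and 0.851 CPM with DOX and RepSox, 15.4, 19.8 and 16.2 CPM with DOX and DMSO, 0.413, 1.26 and 0.661 CPM with RepSox alone and 0.946, 0.637 and 0.524 CPM with DMSO alone. The other 3 groups overlapped one another and lay far below DOX with DMSO. RepSox lowered it 19.7-fold with DOX, and its response without DOX did not pass the test (interaction -4.44, SE 0.41, adjusted p = 2.18e-07). The same holds for SYNPO, an actin-associated protein (-3.22), DOCK11, an activator of the GTPase CDC42 (-3.15), NAV3, a microtubule-binding navigator protein (-2.71), MAP1A, a microtubule-associated protein (-2.70), CYP27A1, a sterol hydroxylase of mitochondria (-2.69), and CYBRD1, a ferric reductase (-2.59): each fell with RepSox in cells with DOX and was not called without DOX. EMP3, a tetraspan membrane protein, had an interaction of -3.03, and RepSox lowered it 14.1-fold with DOX and 1.73-fold without DOX.

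Among genes with a mean of at least 100 CPM, the largest negative interaction after that of ZEB1 was that of SOX4 (chromosome 6, 21592768 to 21598619, plus strand, protein-coding), a progenitor transcription factor. It had 80.9, 81.1 and 79.1 CPM with DOX and RepSox, 215, 210 and 223 CPM with DOX and DMSO, 85.9, 80.4 and 79.7 CPM with RepSox alone and 84, 80.5 and 80.9 CPM with DMSO alone. The 3 other groups overlapped, and RepSox lowered SOX4 2.69-fold with DOX, while its response without DOX did not pass the test (interaction -1.43, SE 0.08, adjusted p = 2.72e-10). The homeobox factor HOXB8 (-1.22), the transcription factor CREB3L1 (-1.07) and the pseudokinase TRIB1 (-1.07) came next.

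Of 6 tested EMT transcription factors, ZEB1 and ETS1 were called, both negative, and 1 positive call was added without replicate 2 of DOX with DMSO or replicate 1 of RepSox alone. ETS1 had 9.89, 9.87 and 10.4 CPM with DOX and RepSox, 22.9, 19 and 21.3 CPM with DOX and DMSO, 9.81, 7.89 and 8.48 CPM with RepSox alone and 9.07, 7.62 and 7.95 CPM with DMSO alone (interaction -1.16, SE 0.15, adjusted p = 1.16e-05). In the mesenchymal and motility list, 12 of 24 tested members were negative and 3 positive, with a median of -0.61. Of all genes tested, 9.61% were negative and 13% positive, so the 3 positive members are near the share of all genes. The positive count was 1 without replicate 2 or 3 of DOX with RepSox, replicate 1 of DOX with DMSO or replicate 2 of DMSO alone. Beside SYNPO, EMP3 and NAV3, the negative members included LGALS1, the lectin galectin-1 (-1.39), the matrix protein FN1 (-1.34), the protease inhibitor SERPINE2 (-1.33) and the receptor kinase AXL (-1.33). The urokinase gene PLAU (1.72) and its receptor PLAUR (0.79) were positive. VIM, the filament protein vimentin, had 0.606, 0.475 and 0.426 CPM with DOX and RepSox, 0.425, 1.11 and 1.01 CPM with DOX and DMSO, 0.276, 0.281 and 0.211 CPM with RepSox alone and 0.334, 0.166 and 0.442 CPM with DMSO alone. It was near the lower limit of the counts, and its interaction was not called (-0.46, SE 0.62, adjusted p = 0.651).

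Among targets of the inhibited receptor, called members were mostly negative. Of 33 tested genes of the TGF-β response list, 11 had a negative and 3 a positive interaction, with a median of -0.23. The shares over all genes tested were 9.61% negative and 13% positive, and the positive members did not pass that share. ITGB6 (3.0) was 1 of the 3 positive. SMAD7, the inhibitory SMAD that TGF-β induces as feedback, had 11.3, 9.13 and 11 CPM with DOX and RepSox, 23.7, 26 and 21.9 CPM with DOX and DMSO, 13.7, 14 and 13.1 CPM with RepSox alone and 20.4, 18.7 and 18.3 CPM with DMSO alone. RepSox lowered SMAD7 in both settings without any overlap between RepSox and DMSO libraries, 2.28-fold with DOX and 1.41-fold without it, and the difference passed the test (interaction -0.69, SE 0.13, adjusted p = 0.0008). The ligand TGFB1 (-0.56), the receptor TGFBR1, which encodes ALK5 (-0.61), and the feedback gene SKIL (-0.62) were negative as well. TGFBR1 averaged 25.5 CPM with DOX and RepSox, 33.1 CPM with DOX and DMSO, 25 CPM with RepSox alone and 21.3 CPM with DMSO alone. PMEPA1, another feedback inhibitor, averaged 145 CPM with DOX and RepSox, 120 CPM with DOX and DMSO, 148 CPM with RepSox alone and 105 CPM with DMSO alone, and its interaction was not called (-0.23, SE 0.09, adjusted p = 0.0689). TSC22D1 had 302, 287 and 293 CPM with DOX and RepSox, 436, 426 and 430 CPM with DOX and DMSO, 267, 244 and 274 CPM with RepSox alone and 203, 203 and 210 CPM with DMSO alone. RepSox lowered it 1.46-fold with DOX and raised it 1.27-fold without DOX (interaction -0.90, SE 0.08, adjusted p = 1.51e-07).

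The ID genes, which encode dominant-negative helix-loop-helix proteins and are BMP targets, differed among themselves. ID1 had 18.3, 19.9 and 18.6 CPM with DOX and RepSox, 40.3, 53.5 and 49 CPM with DOX and DMSO, 17.8, 17.3 and 18.6 CPM with RepSox alone and 42, 49.5 and 44.9 CPM with DMSO alone. RepSox lowered ID1 2.51-fold with DOX and 2.54-fold without it, and the 95% interval of the log2 interaction was -0.26 to 0.29 (estimate 0.02, adjusted p = 0.95). ID2 had 49.4, 43.1 and 47.3 CPM with DOX and RepSox, 11.1, 11.3 and 13 CPM with DOX and DMSO, 55.7, 60.6 and 55.5 CPM with RepSox alone and 31.8, 35.1 and 33.4 CPM with DMSO alone. No groups of ID2 overlapped, and RepSox raised it 3.94-fold with DOX and 1.71-fold without (interaction 1.20, SE 0.11, adjusted p = 2.59e-07). Of the 11 tested genes of the BMP response list, ID2 was the 1 positive, and ID3, SMAD7, BMP2 and BMP4 were among the 5 negative. All genes tested were positive in 13% and negative in 9.61%.

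Of 20 tested WNT target and stem cell genes, 7 had a negative and 2 a positive interaction, against 9.61% and 13% of all genes tested. The positive members of this list, and those of the YAP/TAZ list below, did not pass that share. AXIN2, a negative regulator that β-catenin induces, had 32.5, 30.3 and 33.5 CPM with DOX and RepSox, 115, 121 and 126 CPM with DOX and DMSO, 34.8, 33.7 and 35.9 CPM with RepSox alone and 61.8, 53.3 and 57.2 CPM with DMSO alone. RepSox lowered it 3.75-fold with DOX and 1.65-fold without DOX, and the 2 RepSox groups were close to each other (interaction -1.19, SE 0.1, adjusted p = 5.35e-08). SOX4, the receptor kinase EPHB3 (-1.17) and the stem cell factor ASCL2 (-1.08) were also negative, and the growth genes MYC (0.65) and CCND1 (0.46) were positive. Of 18 tested YAP/TAZ targets, 9 were negative and 2 positive, with a median of -0.30, and CCN2, a matricellular growth factor, had an interaction of -0.75 (SE 0.21, adjusted p = 0.0152). Output genes of the ERK pathway went both ways, with 6 positive and 8 negative of 23. The feedback inhibitor SPRY1 (-0.94) was negative and the EGF receptor ligand AREG (1.14) was positive.

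Genes whose RepSox response turned round with DOX were chosen by the size of the smaller of their 2 responses, among 166 genes raised with DOX and lowered without DOX and 68 lowered with DOX and raised without DOX within the limits on level. PLA2G4F, a cytosolic phospholipase A2, had 1.41, 1.06 and 1.06 CPM with DOX and RepSox, 0.25, 0.253 and 0.217 CPM with DOX and DMSO, 2.29, 1.57 and 1.16 CPM with RepSox alone and 7.29, 8.72 and 7.26 CPM with DMSO alone. RepSox raised it 4.84-fold with DOX and lowered it 4.64-fold without DOX, and the interaction of 4.49 (SE 0.36, adjusted p = 4.27e-08) rested on 29 counts summed over the 3 libraries with DOX and DMSO. The little-studied gene MAB21L4 did the same, 6.95-fold upward with DOX and 3.31-fold downward without, with 21 counts in that group (interaction 4.52, SE 0.39, adjusted p = 1.02e-07). The mucin MUC20 (3.10) and its near-identical pseudogene MUC20P1 (3.33) followed, and the reads of these copies may be shared, so both are uncertain.

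HEG1 (chromosome 3, 124965710 to 125055958, minus strand, protein-coding), a membrane receptor at cell junctions, turned the other way. It had 3.8, 3.67 and 4.28 CPM with DOX and RepSox, 11.3, 11.6 and 12.5 CPM with DOX and DMSO, 2.95, 3 and 2.72 CPM with RepSox alone and 1.09, 1.19 and 0.966 CPM with DMSO alone. No groups overlapped, and the RepSox response was 3.01-fold downward with DOX and 2.67-fold upward without it (interaction -3.00, SE 0.19, adjusted p = 1.52e-09). MAP2K6, a kinase that activates p38 (-1.77), CLEC3A, a C-type lectin (-1.57), and FZD2, a WNT receptor (-2.08), did so too. BTG2, an antiproliferative p53 target, had 81.4, 78.2 and 80.8 CPM with DOX and RepSox, 128 CPM in each library with DOX and DMSO, 75.1, 74.8 and 73.7 CPM with RepSox alone and 43.1, 43.5 and 43.1 CPM with DMSO alone. RepSox lowered it 1.6-fold with DOX and raised it 1.72-fold without DOX (interaction -1.47, SE 0.08, adjusted p = 1.05e-10). TEK, the angiopoietin receptor, averaged 8.08 CPM with DOX and RepSox, 9.57 CPM with DOX and DMSO, 8.14 CPM with RepSox alone and 2.3 CPM with DMSO alone, and RepSox raised it 3.53-fold without DOX and did not change it by a called amount with DOX (interaction -2.07, SE 0.19, adjusted p = 2.8e-07).

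RepSox raised 1676 genes and lowered 1593 in both settings, and the genes named here were chosen from these by stricter limits. By the rule of a called response of at least 2-fold in both and a 95% interval of the interaction within 1.5-fold, 5 genes rose and 15 fell. EGR1 (chromosome 5, 138465490 to 138469315, plus strand, protein-coding), an immediate-early transcription factor, had 7.27, 6.81 and 7.34 CPM with DOX and RepSox, 19.8, 25 and 22.9 CPM with DOX and DMSO, 7.91, 9.15 and 9.73 CPM with RepSox alone and 32.6, 34.1 and 32.5 CPM with DMSO alone. RepSox lowered it 3.16-fold with DOX and 3.7-fold without DOX (interaction 0.23, 95% interval -0.06 to 0.52). RAPGEF3, a cAMP-activated exchange factor, fell 3.02-fold with DOX and 3.11-fold without DOX, with an interval of -0.21 to 0.30. LNX1, an E3 ubiquitin ligase (-0.07), and the long non-coding RNA LINC02432 (0.01) were the others named.

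Among the genes that rose alike, ADH1C, an alcohol dehydrogenase, had 7.55, 7.91 and 7.23 CPM with DOX and RepSox, 2.4, 2.1 and 2.31 CPM with DOX and DMSO, 9.56, 9.38 and 8.35 CPM with RepSox alone and 2.64, 2.58 and 2.79 CPM with DMSO alone. RepSox raised it 3.33-fold with DOX and 3.4-fold without DOX (interaction -0.03, 95% interval -0.38 to 0.32). ASS1, an enzyme of arginine synthesis (0.25), GDPD5, a glycerophosphodiester phosphodiesterase (0.02), and TRABD2A, an inhibitor of WNT ligands (0.05), rose in both settings as well.

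**Figure D4:**
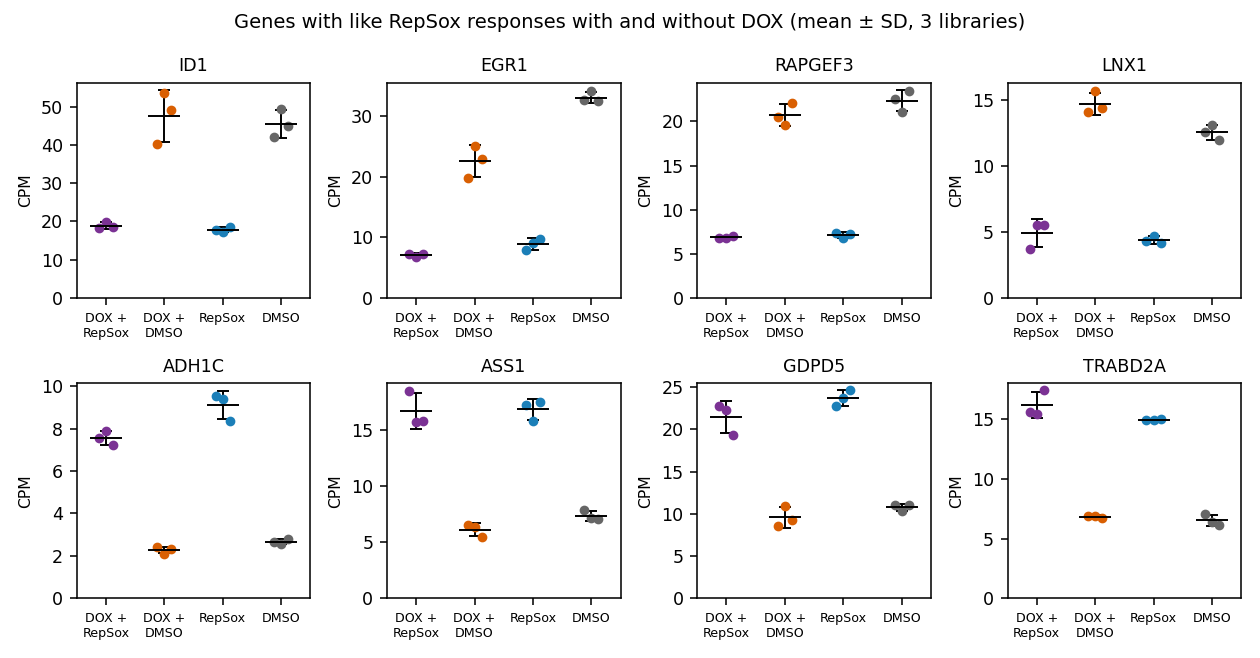
CPM of 8 genes in the 12 libraries, by group, with a line at the mean and bars of 1 SD (n = 3). In the 4 upper panels the RepSox libraries lie below the DMSO libraries with and without DOX, and in the 4 lower panels they lie above them.

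Genes of DNA replication and the cell cycle had positive interactions. Of 36 tested, 29 were positive and 0 negative, against 13% and 9.61% of all genes tested, with a median of 0.50. Under RepSox, 27 rose and 0 fell with DOX, where 26.8% of all genes tested rose and 25.5% fell. Without DOX 9 rose and 4 fell, where 12.5% of all genes tested rose and 12.8% fell. The 4 that fell are near that share. CDC6, which loads the replicative helicase, had 123, 121 and 130 CPM with DOX and RepSox, 51.3, 53.5 and 48.8 CPM with DOX and DMSO, 127, 129 and 123 CPM with RepSox alone and 112, 111 and 118 CPM with DMSO alone. DOX with DMSO was the low group and was apart from the others (interaction 1.13, SE 0.08, adjusted p = 1.34e-08). The helicase subunits MCM2 (0.96) and MCM3 (0.95) and the helicase cofactor GINS2 (1.00) were alike. The mitosis genes PLK1, CDC20, AURKA, AURKB, BUB1, BIRC5 and TOP2A were the 7 not called. Of 11 tested histone genes, 3 were negative and 0 positive: H2BC5 (-1.36), H2BC21 (-1.25) and H2AC6 (-1.07).

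Called members were mostly positive in the lists of sterol synthesis, hypoxia and glycolysis, ATF4 stress and the unfolded protein response. All genes tested were positive in 13% and negative in 9.61%. In sterol synthesis 10 of 25 tested genes were positive and 0 negative (1 negative without replicate 1 of DOX with RepSox), among them the sterol isomerase EBP (0.87) and the mevalonate kinase MVK (0.82). In hypoxia and glycolysis 8 of 27 were positive and 0 negative (1 negative without replicate 3 of DMSO alone). HK2, which phosphorylates glucose, had 95.6, 99.2 and 93.1 CPM with DOX and RepSox, 33.4, 31.2 and 31.6 CPM with DOX and DMSO, 98.6, 102 and 104 CPM with RepSox alone and 70.3, 63.9 and 74.4 CPM with DMSO alone (interaction 1.04, SE 0.09, adjusted p = 1.32e-07). In the ATF4 amino acid stress list 11 of 28 were positive and 2 negative (0 to 2 negative with 1 library left out), led by the angiogenic factor VEGFA (0.82), the pseudokinase TRIB3 (0.81) and the amino acid transporter SLC7A5 (0.73). VEGFA is also a member of the hypoxia list. In the unfolded protein response 11 of 20 were positive and 1 negative (0 to 2 negative with 1 library left out), with the chaperone HSPA5 at 0.51. The positive count there was 7 without replicate 2 of DOX with RepSox, replicate 1 of RepSox alone or replicate 2 of DMSO alone, and 6 without replicate 1 of DMSO alone.

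Among p53 targets and genes of lysosome and autophagy, called members were mostly negative. All genes tested were negative in 9.61% and positive in 13%, and neither list passed that positive share. Of 25 tested p53 targets, 8 were negative (5 without replicate 2 of DMSO alone) and 2 positive (1 when any of 8 of the 12 libraries was left out). TP53INP1, a stress protein of autophagy, had 1.32, 1.82 and 2.07 CPM with DOX and RepSox, 26.7, 19.7 and 26.3 CPM with DOX and DMSO, 1.6, 1.29 and 1.06 CPM with RepSox alone and 3.48, 2.52 and 4.22 CPM with DMSO alone. RepSox lowered it 13.9-fold with DOX and 2.59-fold without DOX (interaction -2.42, SE 0.3, adjusted p = 9.82e-06). In lysosome and autophagy 15 of 29 were negative and 3 positive, with a median of -0.35, and the positive count was 1 without replicate 3 of RepSox alone or replicate 2 of DMSO alone. SMPD1, the acid sphingomyelinase, averaged 0.475 CPM with DOX and RepSox, 7.83 CPM with DOX and DMSO, 0.492 CPM with RepSox alone and 3.5 CPM with DMSO alone, so the 2 RepSox groups were alike and the DMSO groups were apart (interaction -1.21, SE 0.28, adjusted p = 0.00405). BMF, a pro-apoptotic BH3-only protein, had 2.62, 3.27 and 2.02 CPM with DOX and RepSox, 65.3, 76.1 and 66.6 CPM with DOX and DMSO, 2.29, 1.82 and 1.82 CPM with RepSox alone and 13.1, 11.4 and 12.8 CPM with DMSO alone. RepSox lowered it 26.2-fold with DOX and 6.28-fold without DOX (interaction -2.06, SE 0.2, adjusted p = 4.48e-07). Of 14 tested BCL2 family genes, BMF and BBC3, the p53-induced PUMA (-0.78), were the 2 negative and BID (0.28) was the 1 positive, counts that are near the 9.61% and 13% of all genes tested. Without replicate 1 of DOX with RepSox 4 were negative, and BID lost its call when any of 6 of the 12 libraries was left out (adjusted p up to 0.0829).

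**Figure D5:**
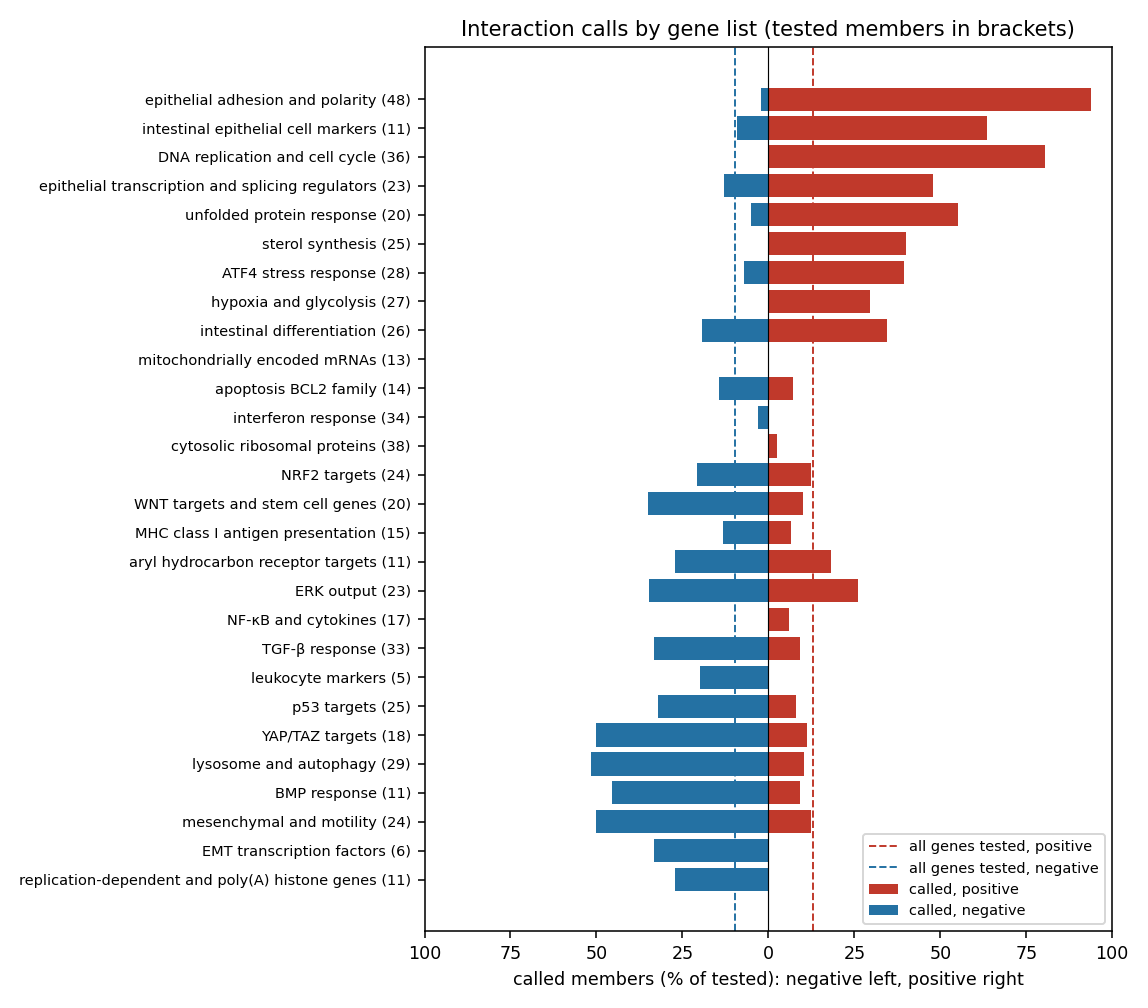
For each list with at least 5 tested genes, bars give the percent of tested members with a positive (right) or negative (left) called interaction, with the shares over all genes tested, 13% and 9.61%, as dashed lines. The bars of epithelial adhesion and of replication reach farthest to the right, and those of lysosome, mesenchymal and YAP/TAZ genes farthest to the left.

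Differentiation markers of the gut were split. Of 26 tested, 9 were positive and 5 negative, against 13% and 9.61% of all genes tested. The brush border protein VIL1 (1.89), CEACAM6 (1.79) and CEACAM5 (1.61) were positive beside FGF19. The intestinal cadherin CDH17 (-2.62), the trefoil peptide TFF3 (-2.61) and the goblet cell mucin MUC2 (-0.96) were negative. VIL1 had 50.5, 52 and 47.2 CPM with DOX and RepSox, 20, 21.5 and 23.8 CPM with DOX and DMSO, 55.9, 59.2 and 54.1 CPM with RepSox alone and 93.9, 87.6 and 92.2 CPM with DMSO alone. RepSox raised VIL1 2.29-fold with DOX and lowered it 1.62-fold without DOX (SE of the interaction 0.1, adjusted p = 1.47e-10).

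Interferon-stimulated genes fell with RepSox in both settings. Of 34 tested, 23 fell and 0 rose with DOX, and 23 fell and 0 rose without DOX, with median log2 responses of -0.62 and -0.69. Of all genes tested, 25.5% fell and 26.8% rose with DOX, and 12.8% fell and 12.5% rose without DOX. STAT2 was the 1 negative interaction (-0.70, SE 0.14, adjusted p = 0.00106) and 0 were positive (1 without replicate 3 of RepSox alone). Both counts are below the shares of all genes tested, 9.61% negative and 13% positive. Replicate 2 of DOX with DMSO stood above its group on this list by 0.55 on the log2 scale, and without that library 12 interactions were positive. OAS1, an antiviral enzyme, averaged 143 CPM with DOX and RepSox, 261 CPM with DOX and DMSO, 125 CPM with RepSox alone and 225 CPM with DMSO alone (interaction -0.02, SE 0.21). In MHC class I presentation, 2 of 15 tested genes were negative, HLA-E (-0.68) among them, and ERAP2 (0.31) was the 1 positive, against 9.61% and 13% of all genes tested. With 1 library left out the negative count was 1 to 4 and the positive count 0 to 5, with 5 positive without replicate 2 of DOX with DMSO. ERAP2 lost its call when any of 9 of the 12 libraries was left out (adjusted p up to 0.125). HLA-E had 116, 107 and 103 CPM with DOX and RepSox, 195, 250 and 202 CPM with DOX and DMSO, 109, 98 and 105 CPM with RepSox alone and 129, 129 and 131 CPM with DMSO alone, and replicate 2 of DOX with DMSO was its highest library.

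Genes of xenobiotic, inflammatory and housekeeping lists were read against the shares over all genes tested, 13% positive and 9.61% negative. ALDH3A1, an aldehyde dehydrogenase that the aryl hydrocarbon receptor induces, had 21.2, 19.1 and 17.8 CPM with DOX and RepSox, 124, 132 and 118 CPM with DOX and DMSO, 18.8, 18.5 and 17.6 CPM with RepSox alone and 41.5, 40.4 and 35.1 CPM with DMSO alone. RepSox lowered it 6.44-fold with DOX and 2.13-fold without DOX (interaction -1.59, SE 0.11, adjusted p = 8.53e-09). It was 1 of 3 negative and SLC7A5 was 1 of 2 positive genes of 11 tested in that list (1 positive without replicate 3 of DOX with RepSox, replicate 2 of RepSox alone or replicate 1 of DMSO alone). CYP1A1, the classical target of that receptor, was at or below 0.6 CPM in all 12 libraries, and its interaction was not called (1.54, SE 1.08, adjusted p = 0.326). Of 24 NRF2 targets 3 were positive, a share near that of all genes, and 5 were negative. Of 17 NF-κB and cytokine genes 1 was positive and 0 negative (1 to 2 and 0 to 1 with 1 library left out). Of 38 cytosolic ribosomal proteins RPL19 was the 1 positive, and 0 were negative. It lost its call with scaling to library totals and when any of 8 of the 12 libraries was left out (adjusted p up to 0.105), and the list's counts then ran from 0 to 3 positive and 0 to 2 negative. Of 13 mitochondrially encoded mRNAs 0 were called, and 1 was negative without replicate 2 of DOX with DMSO. RepSox raised 24 of the 38 ribosomal proteins with DOX and 12 without it, and lowered 0 in either. Of all genes tested, RepSox raised 26.8% with DOX and 12.5% without it, and lowered 25.5% and 12.8%. Where a list had 0 called interactions in a direction, DESeq2 called 0 there too. At an unadjusted p below 0.05 in edgeR the count was 2 for negative NF-κB genes, 1 for negative hypoxia genes and 1 for positive EMT transcription factors, and 0 in the remaining lists with no call.

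Read the other way, the interaction compares the DOX response of cells in RepSox with that of cells in DMSO. DOX changed 81 genes (0.477%) in RepSox, 16 upward (0.0942%) and 65 downward (0.383%), and 6853 genes (40.4%) in DMSO. The number in RepSox was 1670 without replicate 1 of DOX with RepSox and 216 without replicate 2 of DOX with DMSO. It was 27 and 41 without replicates 2 and 3 of DOX with RepSox, and 36, 41 and 43 without replicates 1, 2 and 3 of RepSox alone. At least a 2-fold change in RepSox was called for 8 genes (0.0471%), 3 upward (0.0177%) and 5 downward (0.0294%), which were looked up after their values were seen. ZEB1 (2.98-fold), PDPK2P (2.44-fold) and SYNE1 (2.05-fold) were higher with DOX, and PHGR1 (2.15-fold), TMEM125 (2.3-fold), S100A14 (2.49-fold), FUT3 (2.56-fold) and ATP10B (3.21-fold) were lower with DOX. No gene met the rule of a called interaction with a DOX response of at least 2-fold in RepSox and no called response in DMSO, and the count was also 0 at unadjusted p below 0.05 for the interaction and for DOX in RepSox; DESeq2 was not run for that rule.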

How the data were processed

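The deposited table holds counts: whole-number reads per gene symbol, not normalised, made by the authors. The submitters' processing notes name HISAT2 2.2.0, featureCounts 2.0.0, FastQC 0.11.9 and DESeq2 1.34.0, and the build GRCh38.p13. How strand was counted and which annotation was used is not given in the sources used here, so overlapping antisense genes cannot be told apart.

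Columns were matched to samples by name. The 12 libraries, 3 in each of 4 groups, were fitted together in edgeR 4.0.16 (R 4.3.3) with TMM scaling, filterByExpr at a minimum count of 10, glmQLFit and glmQLFTest. P-values were Benjamini-Hochberg adjusted over all 16978 genes and called below 0.05. The interaction was 1 contrast of the 4 group means on the log2 scale. CPM are scaled to the TMM effective library size. SE is the unshrunken log2 value divided by the square root of F, while printed log2 values carry edgeR's prior count. The typical spread between replicates was 7.82% of a gene's level. The fit was tested on simulated counts, with 50 genes changed at each of 4 sizes in DOX with RepSox alone. The interaction was called for 44% of them at 1.5-fold, 68% at 2-fold, 74% at 3-fold and 80% at 4-fold. Of the calls, 2.21% were of unchanged genes.

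Named genes were the 12 largest interactions in each direction with at least 5 CPM in the highest group and 4 counts in each group, the next 4 with at least 100 CPM on average, 4 per direction with opposite responses, 4 per direction with like responses, up to 3 members of each list, and fixed genes; some of these genes are not reported here. Other list members are given as examples. Genes and lists were chosen with earlier results of these data known.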

Additional observations from a re-analysis of the deposited data

Results flagged for a closer look

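The RepSox response differed between cells with and without DOX, by the test of the interaction, in 2202 genes in the positive and 1632 in the negative direction. The genes named for opposite responses are given here because the difference itself passed the test. The log2 interaction (RepSox response with DOX minus without DOX) was 4.49 for PLA2G4F, 4.52 for MAB21L4, 3.10 for MUC20 and 3.33 for its near-copy MUC20P1. It was -3.00 for HEG1, -1.77 for MAP2K6, -1.57 for CLEC3A and -2.08 for FZD2.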

How the results depend on the processing

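The number of called interactions was 3834 in the reported fit, 4007 with DESeq2, 3807 with median-ratio scaling, 3887 with library totals alone, 3873 with no filter, 3498 with a filter of 5 CPM in 3 libraries, and 3221 to 4393 with 1 library left out; 894 were also at least 2-fold. Scaling to library totals moved the median log2 interaction of all genes to -0.04 and the positive share of calls to 47%, against 57.4%. No gene called in the reported fit and in any of these was called with the opposite sign. The replicate numbers did not pair libraries: same-numbered libraries correlated at -0.145 to 0.103 in their deviations from group means, and 3 of 12 correlated best with their own number. With the replicate block there were 3925 calls, 2250 positive and 1675 negative. DOX in RepSox was called for 81 genes, 264 with DESeq2, 584 with no filter and 27 to 1670 with 1 library left out. Of 95 called named genes, 87 kept call and sign under every alternative with a test and 8 (BID, CRELD2, ERAP2, OSGIN1, PFKFB4, RPL19 and SDF2L1 among them) lost the call under at least 1. On the additive CPM scale 6 called genes (0.156%) had the opposite sign. Among genes not called, near 0, the sign turned with library totals for ID1 (-0.0356), TRABD2A (-0.00734), GDPD5 (-0.029), LINC02432 (-0.0421) and RAPGEF3 (-0.00979), and with the stricter filter for ID1 (-0.00415) and LINC02432 (-0.01). With 1 library left out the interaction ran from -0.0907 to 0.108 for ID1, -0.0276 to 0.0888 for TRABD2A, -0.0527 to 0.128 for GDPD5, -0.197 to 0.209 for LINC02432, -0.179 to 0.0949 for LNX1 and -0.0893 to 0.00884 for ADH1C. The cause was not tested. At a median SE of 0.15 for the interaction against 0.106 for RepSox with DOX, the depth and 3 libraries a group resolve the interaction less finely than its parts.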

Other observations

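The limit of 4 counts in each group left out called genes with no counts in a group, and 7 genes were in that position. DMBT1, a mucosal scavenger receptor of the gut, had 113 counts summed over the 3 libraries with DOX and RepSox, 0 with DOX and DMSO, 137 with RepSox alone and 28 with DMSO alone (adjusted p of the interaction 0.00166). Against a floor of 3 counts over the group, RepSox raised DMBT1 at least 40.8-fold with DOX. SV2C, a synaptic vesicle protein, had 35 counts with DOX and RepSox, 0 with DOX and DMSO, 53 with RepSox alone and 27 with DMSO alone, a rise of at least 12.6-fold with DOX. OVOL1-AS1, named as antisense to OVOL1, had 21, 0, 30 and 49 counts with DOX and RepSox, DOX and DMSO, RepSox alone and DMSO alone. Its reads cannot be told from those of OVOL1 where the genes overlap. The long non-coding RNAs LINC00671 and LINC02584 also had 0 counts with DOX and DMSO. CPED1 went the other way, with 0 counts with DOX and RepSox, 97 with DOX and DMSO, 6 with RepSox alone and 4 with DMSO alone, a fall of at least 29.8-fold with DOX. THSD7A had 2, 54, 3 and 0 counts with DOX and RepSox, DOX and DMSO, RepSox alone and DMSO alone. These genes were looked up after their values were seen.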
